A study of Mus musculus with 38 samples.

Results

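The genes described here are 10 that are widely used to recognise mouse macrophages and microglia: Csf1r, Spi1, Cebpa, Ptprc, Cd68, Adgre1, Itgam, Aif1, Cx3cr1 and P2ry12. They were chosen by name and matched to their Ensembl identifiers, and all 10 were found among the 55487 genes of the count tables. RNA sequencing of 38 mouse libraries in 18 groups measured them in BV2, a microglial cell line, in primary bone marrow-derived macrophages of WT genotype (BMDM), and in GL261 glioma cells stably expressing pEGFP-N1, which served as a reference for cells outside the myeloid lineage. BV2 and GL261 were grown as monocultures or mixed directly at 1:2 (BV2:GL261), and BMDM as monocultures or mixed with GL261 at 1:1, for 16 h at 21% O2 (normoxia) or below 0.1% O2 (hypoxia). In a separate experiment BV2 and BMDM without GL261 received DMSO in normoxia, DMSO in hypoxia, or 10 nM panobinostat in hypoxia, and no group received panobinostat in normoxia. Each group had 2 libraries, except that BMDM co-cultures had 3 at each oxygen level. The culture medium held 2% serum for BV2 and 10% for BMDM, so medium and cell type cannot be told apart between the myeloid cells. All cells were fixed in 3% glyoxal before RNA isolation. How co-cultured cells were separated, and whether the macrophages of different libraries came from different animals, is not given in the sources used here. The labels speak of biological replicates for the BV2 and GL261 co-culture experiment only. For the other libraries, p-values measure only the spread between these samples, which may be technical.

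Macrophages and microglia depend on signalling through the CSF1 receptor, a tyrosine kinase encoded by Csf1r that binds the ligands CSF1 and IL-34. Their gene programme is built by lineage transcription factors, above all PU.1, the product of Spi1, which works with C/EBPα, the product of Cebpa, at many myeloid promoters and enhancers. The other members are read-outs of that programme: the leukocyte phosphatase CD45 (Ptprc), the lysosomal glycoprotein CD68, the F4/80 antigen (Adgre1), the integrin chain CD11b (Itgam), the actin-binding protein IBA1 (Aif1), the fractalkine receptor (Cx3cr1) and the ADP receptor P2RY12. In the brain, Cx3cr1 and P2ry12 are known for their high expression in resting microglia, and both are known to be low in cultured microglia.

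The start-site sequences of 4 members are printed, picked because the levels of these genes changed in the results below. Itgam rose and P2ry12 fell with hypoxia in BV2, Cebpa fell with hypoxia in BMDM, and Aif1 moved with hypoxia and with co-culture in both. Upstream windows of 250 bases were taken from the RefSeq promoter table (build GRCm38.p6), in which 7 of the 10 members had an entry. Each is written 5′ to 3′ on the strand of the gene and ends at the base before the RefSeq start site. Capitals mark GAGGAA or its reverse complement TTCCTC, a core that PU.1 is known to bind, and ACGTG or its reverse complement CACGT, the core bound by hypoxia-inducible factors. CACGT and ACGTG can overlap in 1 stretch of letters. The PU.1 core was present in 23.3% and the HIF core in 16.6% of the 32851 windows of this length in the table.
Itgam, chr7:128062390-128062639, plus strand: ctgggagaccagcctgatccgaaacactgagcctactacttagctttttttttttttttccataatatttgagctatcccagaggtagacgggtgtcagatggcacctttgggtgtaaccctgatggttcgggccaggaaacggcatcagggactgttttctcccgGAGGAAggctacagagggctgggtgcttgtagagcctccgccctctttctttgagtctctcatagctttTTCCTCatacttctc
Aif1, chr17:35176053-35176302, minus strand: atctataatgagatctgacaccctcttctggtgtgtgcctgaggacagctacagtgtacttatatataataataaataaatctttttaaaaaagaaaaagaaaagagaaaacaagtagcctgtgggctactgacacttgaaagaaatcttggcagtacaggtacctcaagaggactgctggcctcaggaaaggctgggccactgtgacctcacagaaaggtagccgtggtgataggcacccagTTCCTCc
P2ry12, chr3:59262986-59263235, minus strand: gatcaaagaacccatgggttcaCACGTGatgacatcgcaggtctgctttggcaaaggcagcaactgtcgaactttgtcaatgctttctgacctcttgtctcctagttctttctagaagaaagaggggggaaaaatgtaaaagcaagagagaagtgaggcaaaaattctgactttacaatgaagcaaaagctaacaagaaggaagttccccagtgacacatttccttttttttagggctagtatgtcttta
Cebpa, chr7:35119043-35119292, plus strand: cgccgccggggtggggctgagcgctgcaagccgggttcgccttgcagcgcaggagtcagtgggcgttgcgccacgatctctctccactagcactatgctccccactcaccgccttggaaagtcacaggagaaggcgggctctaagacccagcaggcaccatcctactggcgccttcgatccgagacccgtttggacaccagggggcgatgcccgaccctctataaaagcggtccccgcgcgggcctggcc
The Itgam window held the PU.1 core on both strands, starting 84 and 15 bases before the start site. The Aif1 window held it once, 7 bases before the start, and the last bases of that window lie within the first exon of the GENCODE gene model. The P2ry12 window held CACGTG, in which the HIF core on both strands overlaps, at 228 and 227 bases before the start, and no PU.1 core. The Cebpa window held neither core. Among the members whose windows are not printed, Cd68 held the PU.1 core, Ptprc held it in 1 window and not in another, and Cx3cr1 held neither core. Letters in a window are a description and do not show binding.

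In the GRCm38 (mm10) annotation, Csf1r lies at 61100598 to 61132149 on chromosome 18, Spi1 at 91082390 to 91115756 on chromosome 2, and Cebpa, a gene of a single exon, at 35119293 to 35121928 on chromosome 7. Itgam lies on the same chromosome at 128062640 to 128118491, and 68.7% of its exon bases are shared with Gm49368, a gene model on the same strand that had 0 to 7 counts per library. Csf1r shares 15.1% of its exon bases with Hmgxb3 on the opposite strand, which had 335 to 5222 counts. Part of the reads in these shared stretches cannot be assigned to 1 gene with certainty. For Csf1r this depends on whether the authors counted reads by strand, which is not given in the sources used here. For Itgam it does not, because both gene models lie on the same strand. The remaining members share at most 1.93% of their exon bases with another gene.

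Library totals ran from 9634700 to 27238933 counts, and 3 counts, the limit that a count of 0 allows, corresponded to 0.110 to 0.311 CPM (counts per 1000000 counts of the library). Levels below are CPM after TMM scaling within an experiment and cell type, given library by library in order of replicate number. Differences are log2 fold changes with their standard error (SE) from edgeR's quasi-likelihood test, with p adjusted over all tested genes by Benjamini-Hochberg and 0.05 as the threshold. Summed over a marker list, neutrophil markers reached at most 19.5 CPM and lymphocyte markers at most 0.196 CPM in any BV2 or BMDM library. The summed level of 6 fibroblast markers (Col1a1, Col1a2, Col3a1, Dcn, Lum and Pdgfrb) stood apart in 1 set of libraries: it was 2674 to 23237 CPM in the BMDM of the panobinostat experiment, against 70.8 to 595 CPM in the BMDM of the co-culture experiment. In bulk samples, fewer cells of a type and less RNA per cell cannot be told apart.

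The 10 genes separated the 3 cell types, but with a different profile in each. Cd68, Csf1r, Spi1 and Ptprc, the general macrophage genes, were abundant in both BV2 and BMDM. In normoxic monocultures, Adgre1, Itgam, Aif1, Cebpa and Cx3cr1 stood higher in BMDM than in BV2, with Aif1 below 100 CPM in both. P2ry12 was low in both.

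In normoxic BV2 monocultures, Csf1r stood at 519 and 604 CPM, Cd68 at 729 and 649 CPM, Spi1 at 234 and 226 CPM, and Ptprc at 234 and 294 CPM. In normoxic BMDM monocultures, Csf1r stood at 3569 and 3125 CPM, Cd68 at 979 and 1000.5 CPM, Spi1 at 911 and 867 CPM, and Ptprc at 248 and 227 CPM. Adgre1 was at 32.8 and 38.3 CPM in BV2 and at 895 and 565 CPM in BMDM. The macrophage profile of BV2 was therefore carried by 4 of the 10 genes at more than 100 CPM, and that of BMDM by 8.
The remaining genes were below 10 CPM in BV2. Cx3cr1 was at 0.850 and 1.74 CPM in BV2 and 571 and 392 CPM in BMDM, and Cebpa at 0.128 and 0.356 CPM against 194 and 173 CPM. Itgam was at 9.18 and 8.69 CPM in BV2 and 263 and 274 CPM in BMDM, and Aif1 at 1.66 and 1.47 CPM against 54.1 and 46.4 CPM. P2ry12 was the exception, with 7.65 and 6.55 CPM in BV2 and 2.52 and 3.34 CPM in BMDM. These levels come from experiments that were counted separately, and no test was made across them.

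**Figure D1:**
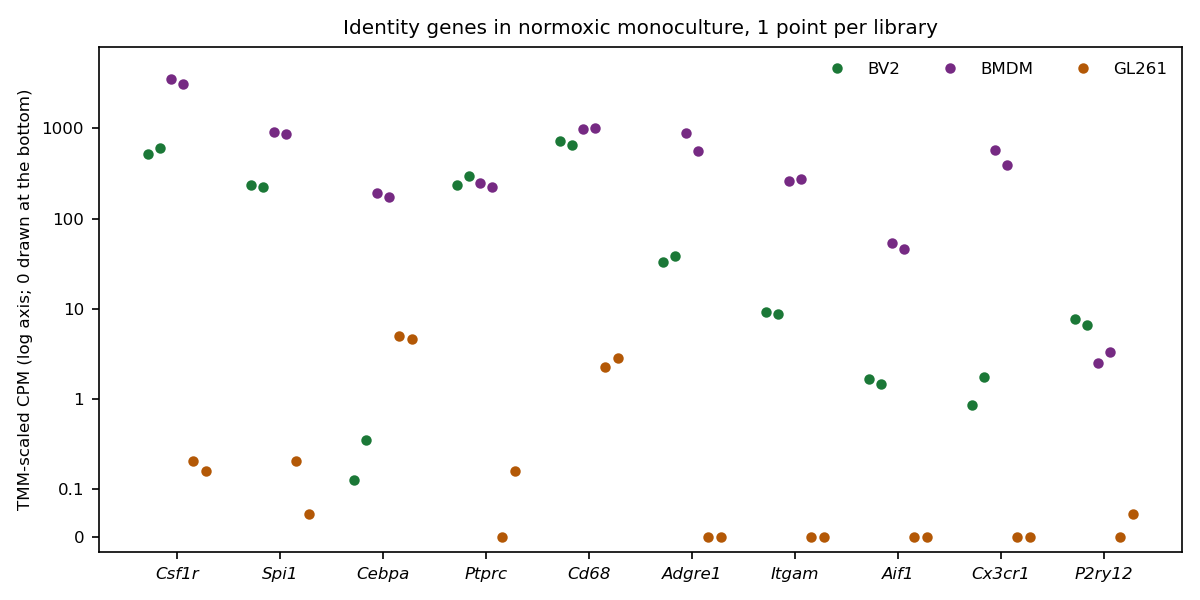
Level of each of the 10 genes in the normoxic monoculture libraries of BV2, BMDM and GL261, in TMM-scaled CPM on a log axis, with libraries at 0 drawn at the bottom. Each point is 1 library. Csf1r, Spi1, Ptprc and Cd68 are high in BV2 and BMDM. Cebpa and Cx3cr1 are at 173 CPM or more in every BMDM library and at 1.74 CPM or less in every BV2 library shown.

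Per kilobase of merged exon, a scale used to rank genes within a cell type, Cd68 led in normoxic BV2 at 548 ± 45.0 CPM per kilobase (SD, n = 2). Csf1r followed at 97.2 ± 10.3 and Spi1 at 85.3 ± 2.00 CPM per kilobase (SD, n = 2 each). The order in BV2 then ran Ptprc, Adgre1, P2ry12, Itgam, Aif1, Cx3cr1 and Cebpa. In normoxic BMDM the first places were the same, with Cd68 at 787 ± 12, Csf1r at 580 ± 54.3 and Spi1 at 330 ± 11.7 CPM per kilobase (SD, n = 2 each). Adgre1, Cx3cr1, Cebpa, Itgam, Aif1, Ptprc and P2ry12 followed. Neighbours in either order did not overlap between the replicate libraries. The place of Itgam is uncertain in both orders. Its counts were divided by all its exon bases, and reads in the 68.7% shared with Gm49368 may be missing from them. On this scale Ptprc ranked next to last in BMDM and P2ry12 last. Ptprc was divided by 18313 bases, all its annotated exons merged, which can exceed the length of a single transcript, so its rank may be too low. The order of BMDM was not the same in the panobinostat experiment: with DMSO in normoxia Adgre1 came first at 505 ± 320 CPM per kilobase, then Csf1r at 484 ± 45.3 and Cd68 at 408 ± 147 (SD, n = 2 each), and these 3 overlapped between the libraries.

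The difference between BMDM and BV2 could be tested in the panobinostat experiment, where both were counted together with DMSO in normoxia. There 7 of 10 members were higher in BMDM and none was lower by the test, against 44.2% of all genes called in either direction and 27.1% called higher. Cebpa was higher by 7.47 ± 0.62 log2 (SE, adjusted p = 1.8e-05, edgeR), Adgre1 by 5.53 ± 0.64 (adjusted p = 0.000113), Aif1 by 5.84 ± 0.88 (adjusted p = 0.000592) and Itgam by 5.97 ± 0.98 (adjusted p = 0.000934). Cx3cr1 was higher by 7.65 ± 2.36, Csf1r by 2.29 ± 0.63 and Spi1 by 1.14 ± 0.30 (SE). Cd68, Ptprc and P2ry12 differed by -0.73, 0.11 and 0.66 log2 and did not pass. Left out in turn, the libraries gave 4 to 6 calls, and the lowest count came without normoxic DMSO BV2 replicate 1. The calls for Cebpa, Adgre1, Aif1 and Itgam were made in each of these 4 fits, while those for Spi1, Csf1r and Cx3cr1 were not. The fibroblast markers summed to 23237 and 20453 CPM in these BMDM libraries, and at most 22.9 CPM over the BV2 libraries of the experiment. Their part in the differences was not tested.

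In GL261 monocultures the members were at or near 0, with Cebpa as the exception. Adgre1, Aif1, Cx3cr1 and Itgam had 0 counts in both normoxic libraries, so BV2 was at least 211-fold higher for Adgre1, 53.0-fold for Itgam, 9.27-fold for Aif1 and 7.70-fold for Cx3cr1 against a floor of 3 counts per library. Csf1r was at 0.205 and 0.160 CPM in GL261 and Spi1 at 0.205 and 0.0534 CPM. In the fit over both cell lines, 9 of 10 members were higher in BV2, against 73.2% of all genes called in either direction and 33.8% called higher in BV2. Cd68 was detectable in GL261 at 2.25 and 2.88 CPM and was 8.18 ± 0.22 log2 higher in BV2 (SE, adjusted p = 6.39e-16, edgeR).
Cebpa went the other way. It stood at 5.06 and 4.64 CPM in GL261 and at 0.128 and 0.356 CPM in BV2, a difference of -4.18 ± 0.40 log2 for BV2 minus GL261 (SE, adjusted p = 3.34e-08, edgeR). The transcript of this myeloid factor was thus lower in the microglial line than in the glioma line.

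Hypoxia changed 5 of the 9 members tested in BV2 monocultures, and not in 1 direction. The receptor gene Csf1r, the CD45 gene Ptprc and the CD11b gene Itgam rose. Aif1 and P2ry12 fell. The background in this comparison was 61.9% of all genes called, so a share of 5 in 9 is near that of the transcriptome, and the median difference of the members was 0.20 log2 against 0 over all genes. In BMDM monocultures 3 of 10 members passed the test, against 23.9% of all genes: Ptprc rose, and Aif1 and Cebpa fell. The median difference of the 10 was -0.37 log2, against 0.03 over all genes. A fit of only these 2 groups called 7 members, and a fit without a filter beyond 1 count called 5.

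Csf1r in BV2 went from 519 and 604 CPM in normoxia to 1138 and 1090.1 CPM in hypoxia. The hypoxic libraries were both higher, by 0.99 ± 0.12 log2 (SE, adjusted p = 3.09e-06, edgeR). In BMDM, Csf1r was at 3569 and 3125 CPM in normoxia and 3620.4 and 3594 CPM in hypoxia, a difference of 0.11 ± 0.21 log2 (SE) that did not pass. Both ligand genes of the receptor rose in BV2 monocultures: Csf1 from a mean of 136 to 271 CPM (0.99 ± 0.14 log2, SE) and Il34 from 0.825 to 3.31 CPM (1.99 ± 0.44 log2, SE). In BMDM, Csf1 rose from 8.11 to 44.2 CPM (2.45 ± 0.74 log2, SE, adjusted p = 0.0346, edgeR). Il34 was not tested there for lack of counts. The receptor and its ligand genes thus rose together in these hypoxic BV2 monocultures, with Il34 at a low level. In the panobinostat experiment, neither Csf1r nor Csf1 passed for hypoxia in BV2 with DMSO.

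Of the transcription factors, Spi1 in BV2 was at 234 and 226 CPM in normoxia and 213 and 171 CPM in hypoxia. The groups did not overlap, but the difference of -0.26 ± 0.12 log2 (SE) did not pass (adjusted p = 0.0826, edgeR). In BMDM, Spi1 was at 911 and 867 CPM in normoxia and 755 and 648 CPM in hypoxia, a difference of -0.34 ± 0.15 log2 (SE) that did not pass either. Cebpa fell in BMDM from 194 and 173 CPM to 70.6 and 65.5 CPM. All hypoxic values were below all normoxic ones, by -1.43 ± 0.21 log2 (SE, adjusted p = 0.001, edgeR), and the call was made with each of the 4 libraries left out. In BV2, Cebpa had 0 counts in both hypoxic libraries and was not tested.

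Among the leukocyte and macrophage surface genes, Itgam showed the largest rise of the 9 members tested in BV2 monocultures. It went from 9.18 and 8.69 CPM to 32.6 and 25.1 CPM, a difference of 1.69 ± 0.17 log2 (SE, adjusted p = 2.43e-07, edgeR). In BMDM, Itgam was at 263 and 274 CPM in normoxia and 378 and 337 CPM in hypoxia, which did not pass (0.41 ± 0.36 log2, SE, adjusted p = 0.449). Ptprc rose in both cell types. It went from 234 and 294 to 321 and 378 CPM in BV2 (0.41 ± 0.13 log2, SE, adjusted p = 0.0134, edgeR) and from 248 and 227 to 357 and 408 CPM in BMDM (0.69 ± 0.19 log2, SE, adjusted p = 0.0214, edgeR). Both calls depended on single libraries: that in BV2 was lost without normoxic replicate 1 or hypoxic replicate 2, and that in BMDM without any 1 of the 4 libraries. Cd68 and Adgre1 passed in neither cell type. Cd68, which lies in lysosomal membranes, was at 729 and 649 CPM in normoxia and 813 and 776 CPM in hypoxia in BV2, and at 979 and 1000.5 CPM against 1165 and 1239 CPM in BMDM. Adgre1 was at 32.8 and 38.3 CPM against 24.6 and 28.3 CPM in BV2 (-0.43 ± 0.22 log2, SE) and at 895 and 565 CPM against 544 and 563 CPM in BMDM (-0.40 ± 0.31 log2, SE).

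Of the genes used to recognise microglia, Aif1 fell with hypoxia in both cell types and P2ry12 in BV2, and Cx3cr1 passed in neither. Aif1 in BMDM fell from 54.1 and 46.4 CPM to 17.6 and 19.1 CPM (-1.45 ± 0.27 log2, SE, adjusted p = 0.00379, edgeR). In BV2 it fell from 1.66 and 1.47 CPM to 0.885 and 0.714 CPM (-0.97 ± 0.36 log2, SE, adjusted p = 0.0299), at a level near the detection limit, and this call was lost when any 1 of the 4 libraries was left out. P2ry12 in BV2 fell from 7.65 and 6.55 CPM to 3.72 and 4.45 CPM (-0.80 ± 0.21 log2, SE, adjusted p = 0.00331, edgeR).
In BMDM, P2ry12 was at 2.52 and 3.34 CPM in normoxia and 0.218 and 1.45 CPM in hypoxia, and the difference of -1.79 ± 0.78 log2 (SE) did not pass. Cx3cr1 was at 571 and 392 CPM in normoxic BMDM and at 297 and 208 CPM in hypoxic BMDM (-0.93 ± 0.44 log2, SE, adjusted p = 0.145, edgeR). In BV2 its values were 0.850 and 1.74 CPM in normoxia and 1.83 and 2.47 CPM in hypoxia (0.74 ± 0.35 log2, SE, adjusted p = 0.0807). Neither pair of groups overlapped, and neither difference passed.

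**Figure D2:**
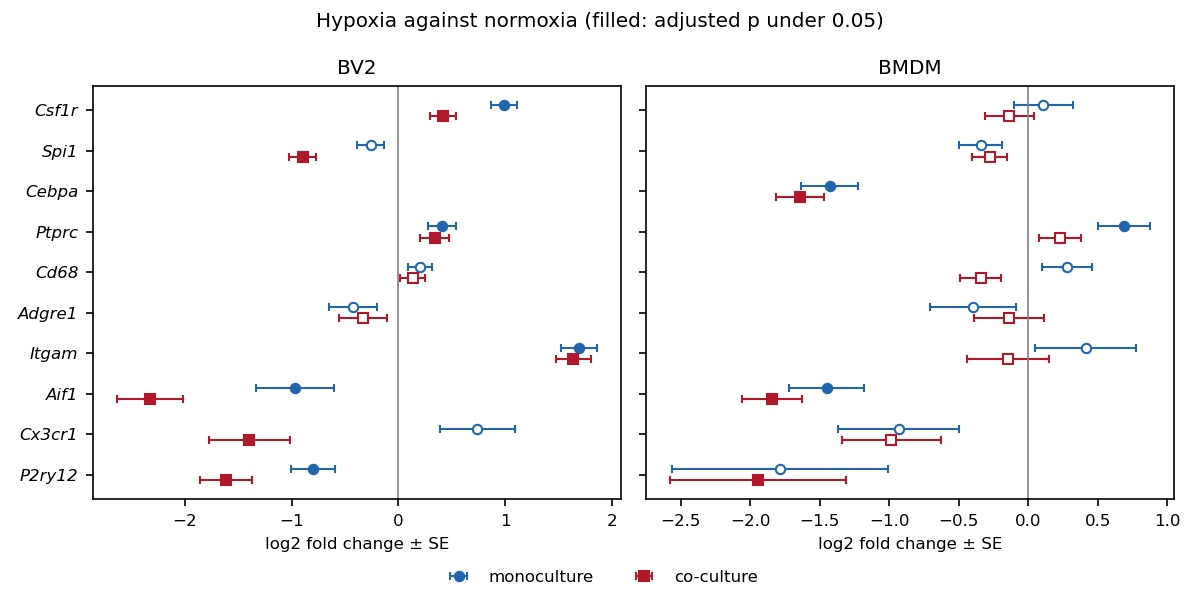
Log2 difference between hypoxia and normoxia for each member in BV2 and BMDM, in monoculture and in co-culture with GL261; bars are SE and filled points passed an adjusted p of 0.05 (edgeR). Itgam is at 1.69 and 1.64 in BV2, while Aif1 lies below 0 in all 4 comparisons.

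In co-culture with GL261, hypoxia changed 7 of the 9 members tested in BV2, against 67.3% of all genes: 3 rose and 4 fell, with a median of -0.33 log2 against 0.04 over all genes. Itgam rose from 15.1 and 10.9 CPM to 40.8 and 39.7 CPM (1.64 ± 0.16 log2, SE, adjusted p = 2.71e-07, edgeR). Csf1r rose from 585 and 505 CPM to 748 and 704 CPM (0.41 ± 0.12 log2, SE, adjusted p = 0.00698), a call lost without normoxic replicate 2 or hypoxic replicate 1. Ptprc rose by 0.34 ± 0.13 log2 (SE, adjusted p = 0.0323), a call lost without normoxic replicate 2 or either hypoxic library. These are the members that also rose in monoculture.
Spi1 fell in co-cultured BV2, from 272 and 316 CPM to 152 and 165 CPM. Both hypoxic libraries lay below both normoxic ones, by -0.89 ± 0.13 log2 (SE, adjusted p = 1.13e-05, edgeR). Aif1 fell from 6.43 and 4.80 CPM to 1.34 and 0.875 CPM (-2.32 ± 0.31 log2, SE, adjusted p = 6.53e-06), and P2ry12 from 5.46 and 5.39 CPM to 1.61 and 1.92 CPM (-1.61 ± 0.24 log2, SE, adjusted p = 2.46e-05). Cx3cr1 fell from 2.56 CPM in both normoxic libraries to 1.06 and 0.875 CPM (-1.40 ± 0.38 log2, SE, adjusted p = 0.00411). The calls for Spi1, Aif1, P2ry12, Cx3cr1 and Itgam were made with each of the 4 libraries left out. Adgre1 and Cd68 differed by -0.33 and 0.13 log2 and did not pass.

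In co-cultured BMDM, 3 of 10 members passed the hypoxia test, against 34.8% of all genes, and all 3 fell, as did 17.3% of all genes. Cebpa was at 174, 145 and 159.8 CPM in normoxia and 63.7, 40.1 and 49.5 CPM in hypoxia (-1.64 ± 0.17 log2, SE, adjusted p = 7.32e-05, edgeR). Aif1 was at 158, 131 and 172 CPM in normoxia and 51.8, 27.4 and 49.1 CPM in hypoxia (-1.84 ± 0.22 log2, SE, adjusted p = 0.000157). The groups lay well apart for both genes, and both calls were made with each of the 6 libraries left out. P2ry12 was at 3.03, 2.91 and 6.94 CPM in normoxia and 2.01, 0.521 and 0.847 CPM in hypoxia (-1.94 ± 0.63 log2, SE, adjusted p = 0.0339, edgeR). This call was lost without normoxic replicate 3, hypoxic replicate 2 or hypoxic replicate 3.
Cx3cr1 was at 533, 297 and 302 CPM in normoxic and 252, 92.3 and 227 CPM in hypoxic co-cultured BMDM. All hypoxic values were lower, but the difference of -0.99 ± 0.36 log2 (SE) missed the threshold (adjusted p = 0.0513, edgeR). The 3 same-numbered pairs of these groups deviated together. With the replicate number as a block over all 10 BMDM libraries of the experiment, Cx3cr1 fell by 1.04 log2 (adjusted p = 0.00539, edgeR). This block also ties monocultures to co-cultures by number, and the deviations of those libraries correlated by only -0.00185 to 0.224. The third hypoxic BMDM library carried the highest fibroblast-marker sum of the experiment, 595 CPM against 70.8 and 179 CPM in the other 2. The share of GL261 RNA, described below, was 1.72, 3.22 and 6.28% in the hypoxic libraries in order of replicate number. In the normoxic ones it was 1.29, 2.29 and 3.70%. The part of either in the shared deviations was not tested. Spi1 was even in the hypoxic libraries, at 813, 816 and 815 CPM, against 909.5, 1086 and 968 CPM in normoxia (-0.28 ± 0.13 log2, SE, adjusted p = 0.108). Csf1r, Cd68, Adgre1 and Itgam differed by -0.14, -0.34, -0.14 and -0.15 log2, and Ptprc by 0.23 log2, and none passed.

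Co-culture with GL261 raised Aif1 in both myeloid cell types, and it was the only member called in either cell type in normoxia. Aif1 in BV2 went from 1.66 and 1.47 CPM alone to 6.43 and 4.80 CPM with GL261 (1.83 ± 0.28 log2, SE, adjusted p = 0.000829, edgeR). That made 1 of 9 members, against 14.9% of all genes called and 5.77% called higher. In BMDM, Aif1 went from 54.1 and 46.4 CPM alone to 158, 131 and 172 CPM with GL261 (1.61 ± 0.25 log2, SE, adjusted p = 0.0129, edgeR), 1 of 10 members against 1.64% of all genes called and 1.57% called higher. GL261 had 0 counts of Aif1 in all 8 of its libraries.
The BV2 call was made with each of the 4 libraries left out. The BMDM call was lost without either of the 2 monoculture libraries. Spi1, Itgam and Cx3cr1 in normoxic BV2 differed by 0.36, 0.53 and 0.99 log2 between co-culture and monoculture and missed the threshold (adjusted p = 0.0664, 0.0509 and 0.069, edgeR). DESeq2 called 2 members in this comparison, against 11.7% of all genes.

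In hypoxia, co-culture changed 3 of 9 members in BV2, against 15.7% of all genes. Csf1r was lower with GL261, at 748 and 704 CPM against 1138 and 1090.1 CPM alone (-0.62 ± 0.12 log2, SE, adjusted p = 0.00223, edgeR). P2ry12 was lower as well, at 1.61 and 1.92 CPM against 3.72 and 4.45 CPM (-1.21 ± 0.25 log2, SE, adjusted p = 0.00323). Itgam was higher, at 40.8 and 39.7 CPM against 32.6 and 25.1 CPM (0.48 ± 0.15 log2, SE, adjusted p = 0.044), but DESeq2 did not call it, and the call was lost without hypoxic monoculture replicate 2 or either co-culture library. Csf1r and P2ry12 were called with each of the 4 libraries left out.
In hypoxic BMDM, Aif1 was the 1 member of 10 called, against 7.11% of all genes called and 4.06% called higher. It was at 17.6 and 19.1 CPM alone and at 51.8, 27.4 and 49.1 CPM with GL261 (1.22 ± 0.25 log2, SE, adjusted p = 0.0202, edgeR). The call was lost without either monoculture library or without co-culture replicate 3, and in a fit of these 2 groups alone. Aif1 in hypoxic co-culture was therefore near its level in normoxic monoculture, 42.8 ± 13.4 CPM (SD, n = 3) and 50.2 ± 5.42 CPM (SD, n = 2).

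**Figure D3:**
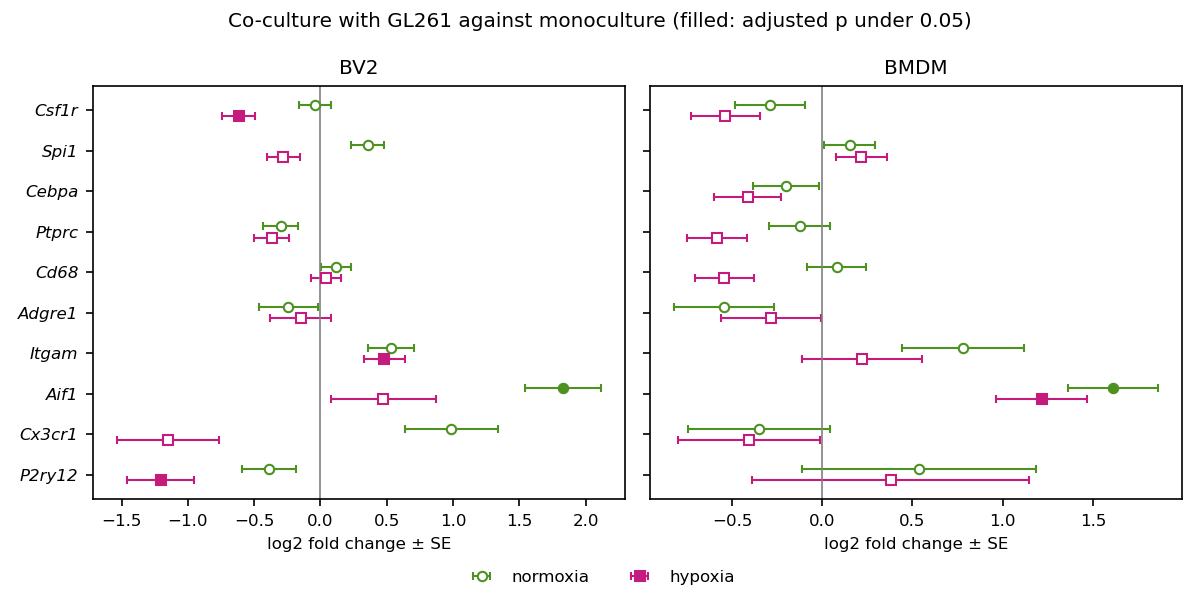
Log2 difference between co-culture with GL261 and monoculture for each member in BV2 and BMDM, in normoxia and in hypoxia; bars are SE and filled points passed an adjusted p of 0.05 (edgeR). Aif1 stands at 1.83 in BV2 and 1.61 in BMDM in normoxia, and Csf1r in BV2 lies near 0 in normoxia and at -0.62 in hypoxia.

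Genes specific to the partner were detected in the co-culture libraries. Those of GL261 were at a level that corresponds to 0.760 ± 0.271% GL261 RNA in normoxic and 2.22 ± 0.202% in hypoxic co-cultured BV2 (SD, n = 2 each). In co-cultured BMDM the values were 2.43 ± 1.21% and 3.74 ± 2.32% (SD, n = 3 each). Cebpa, the 1 member above 3 CPM in GL261 monoculture, was not tested in BV2. Summed glial and neural markers, which GL261 expresses, were at 13.4 to 41.3 CPM in co-cultured BV2 and at most 1.59 CPM in BV2 alone in the same experiment. In BMDM the same sum was 148 to 284 CPM alone and 134 to 257 CPM in co-culture, where Nes and Cspg4 made up most of it. Sox2 was at most 0.0681 CPM in BMDM alone and at 6.66 to 37.2 CPM in co-cultured BMDM. The part of GL261 RNA in the member differences was not tested.

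Whether the hypoxia effect itself differed between co-culture and monoculture was tested as an interaction. In BV2, Cx3cr1 passed, with a hypoxia effect 2.14 ± 0.52 log2 lower in co-culture than alone (SE, adjusted p = 0.0435, edgeR), 1 of 9 members against 2.19% of all genes called and 1.03% called lower. It rests on 15 to 48 reads per library, and the call was made in 1 of the 8 fits that left out a library. DESeq2 gave the gene no adjusted p in this comparison. Spi1 differed by -0.64 ± 0.18 log2 (SE, adjusted p = 0.0665) and Csf1r by -0.58 ± 0.17 log2 (SE, adjusted p = 0.084), which did not pass. The change of Spi1 in co-culture but not in monoculture is therefore not a difference shown by the test. In BMDM no member and 0% of genes passed by edgeR, with 1 member at an unadjusted p under 0.05, against 4.3% of all genes, and none by DESeq2, against 0.0149%.

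In GL261 most members were measured at low levels. In normoxic co-culture with BV2, 3 of the 5 members with enough counts to be tested were higher than in GL261 alone, against 0.514% of all genes called and 0.323% called higher. Csf1r went from 0.205 and 0.160 CPM to 6.82 and 4.36 CPM (4.88 ± 0.49 log2, SE, adjusted p = 0.00211, edgeR), Spi1 from 0.205 and 0.0534 CPM to 2.47 and 1.78 CPM (3.96 ± 0.59 log2, SE, adjusted p = 0.0156) and Cd68 from 2.25 and 2.88 CPM to 9.94 and 7.86 CPM (1.79 ± 0.32 log2, SE, adjusted p = 0.0339). Ptprc, at 0 and 0.160 CPM alone and 1.88 and 1.11 CPM in co-culture, missed the threshold (adjusted p = 0.0729). Cebpa, which GL261 carries itself, was at 5.06 and 4.64 CPM alone and 6.5 and 6.26 CPM in co-culture and did not pass. The Spi1 and Cd68 calls were lost when any 1 of the 4 libraries was left out, and that of Csf1r without monoculture replicate 2.
In hypoxia, Csf1r was the 1 member of 5 called, against 1.39% of all genes called and 0.889% called higher. It stood at 0.343 and 0.375 CPM alone and at 2.33 and 1.36 CPM in co-culture (2.34 ± 0.46 log2, SE, adjusted p = 0.0371, edgeR). The call was lost without either monoculture library, without co-culture replicate 1, and in a fit of these 2 groups alone. For the 4 members above 100 CPM in BV2, the normoxic GL261 co-culture level was 0.561 to 1.28% of the BV2 monoculture level, with a median of 0.953%. In hypoxia the range was 0.133 to 0.333%, with a median of 0.235%. Genes specific to BV2, with the 10 members left out, gave a share of BV2 RNA of 0.772 ± 0.203% in the normoxic and 0.237 ± 0.0266% in the hypoxic GL261 co-cultures (SD, n = 2 each), and 0.0542% and 0.0351% in the monocultures. The part of BV2 RNA in the levels of the members was not tested.

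**Figure D4:**
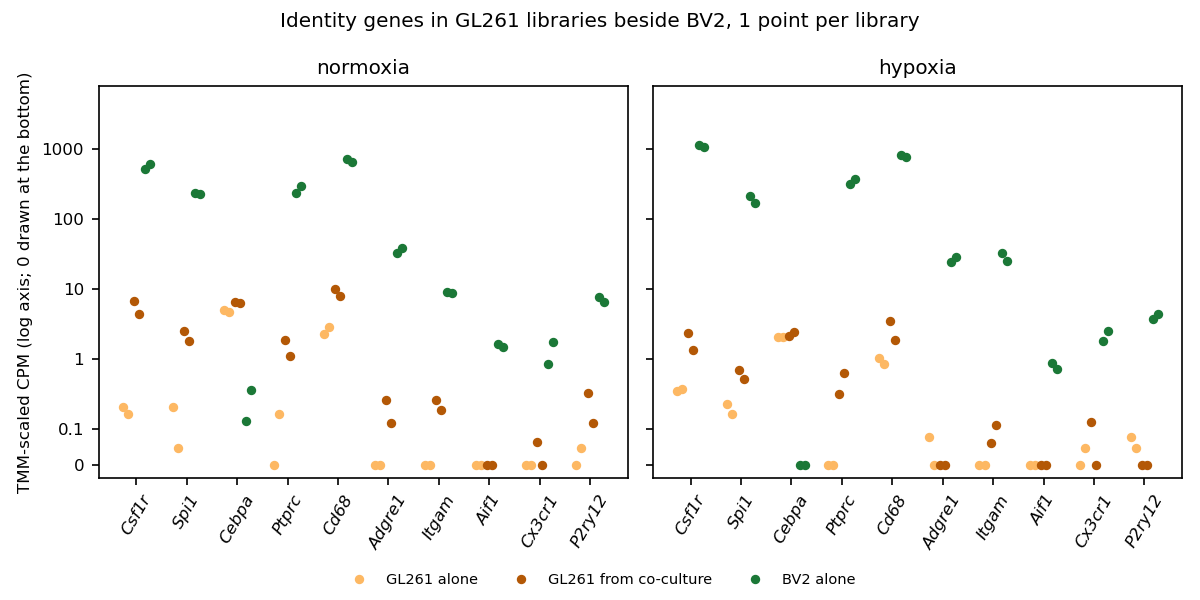
Level of the members in the 8 GL261 libraries, alone and in co-culture with BV2, in TMM-scaled CPM on a log axis, with libraries at 0 drawn at the bottom. Csf1r, Spi1, Ptprc and Cd68 are higher in both normoxic co-culture libraries than in both monoculture libraries, Cebpa is at 2.06 CPM or more in all 8, and Aif1 is at 0 in all 8.

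The panobinostat experiment repeated the hypoxia comparison with DMSO in both arms and added the histone deacetylase inhibitor in hypoxia. In BV2, panobinostat changed 4 of 9 members relative to hypoxic DMSO, against 14.6% of all genes. Csf1r, Spi1 and Ptprc fell, and Adgre1 rose, with a median over the members of -0.80 log2 against -0.01 over all genes. With DMSO alone, hypoxia changed 2 of 9 members, against 37.5% of all genes called and 20.2% called lower, and both fell: Adgre1 and P2ry12.

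Csf1r in BV2 stood at 766 and 522 CPM with DMSO in normoxia, 836 and 773 CPM with DMSO in hypoxia, and 234 and 244 CPM with panobinostat in hypoxia. The panobinostat libraries lay far below both DMSO groups, by -1.75 ± 0.25 log2 against hypoxic DMSO (SE, adjusted p = 0.00362, edgeR). The DMSO groups did not overlap, but their difference of 0.32 ± 0.24 log2 (SE) did not pass. Spi1 was at 214 and 290.2 CPM with DMSO in normoxia, 246 and 251 CPM with DMSO in hypoxia, and 110.3 and 125 CPM with panobinostat. It fell by 1.08 ± 0.22 log2 with panobinostat (SE, adjusted p = 0.0135, edgeR) and differed by -0.02 ± 0.22 log2 (SE) between the DMSO groups. Ptprc was at 334 and 228 CPM, 185 and 189 CPM, and 88.4 and 107 CPM in the same order, and with panobinostat it fell by 0.94 ± 0.24 log2 (SE, adjusted p = 0.0287, edgeR).
Adgre1 moved against hypoxia. It stood at 53.3 and 26.2 CPM with DMSO in normoxia, 16.4 and 10.8 CPM with DMSO in hypoxia, and 49.1 and 27.1 CPM with panobinostat in hypoxia. With hypoxia it fell by 1.54 ± 0.39 log2 (SE, adjusted p = 0.0121, edgeR) and with panobinostat it rose by 1.48 ± 0.39 log2 (SE, adjusted p = 0.0337), which brought it back within the range of the normoxic libraries. Both differences use the same 2 hypoxic DMSO libraries, so the fall and the rise are not independent. In untreated BV2 the fall of Adgre1 with hypoxia did not pass. P2ry12 fell with hypoxia, from 4.02 and 2.44 CPM to 1.02 and 1.34 CPM (-1.44 ± 0.46 log2, SE, adjusted p = 0.0338), and was at 0.403 and 0.432 CPM with panobinostat (-1.48 ± 0.56 log2, SE, adjusted p = 0.105).
None of these 4 panobinostat calls was made without panobinostat replicate 1. Ptprc was also lost without any of the other 3 libraries, Spi1 without panobinostat replicate 2, and Adgre1 without hypoxic DMSO replicate 2. For hypoxia, Adgre1 was lost without normoxic DMSO replicate 1, and P2ry12 without that library or either hypoxic library, and by DESeq2.

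Against DMSO in normoxia, panobinostat in hypoxia gave 4 of 9 members called in BV2, against 48.4% of all genes called and 24.8% called lower, and all 4 were lower. Ptprc fell by 1.53 ± 0.24 log2 (SE, adjusted p = 0.000692, edgeR), Csf1r by 1.43 ± 0.25 (adjusted p = 0.00119), P2ry12 by 2.92 ± 0.53 (adjusted p = 0.00148) and Spi1 by 1.10 ± 0.22 (adjusted p = 0.0026). Each of these calls was made with each of the 4 libraries left out. This comparison shares its panobinostat libraries with the one above. Cd68, the most abundant member per kilobase, was at 1219.8 and 703 CPM with DMSO in normoxia, 953 and 664 CPM with DMSO in hypoxia and 789.6 and 560.4 CPM with panobinostat, and passed in no comparison of the experiment. The rise of Csf1r and Itgam with hypoxia in untreated BV2 was not called here: Itgam was at 15.9 and 5.29 CPM in normoxia and 20.9 and 11.6 CPM in hypoxia, and the groups overlapped.

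In BMDM of the same experiment no member passed for hypoxia with DMSO (0.483% of all genes did) or for panobinostat against hypoxic DMSO (0% of all genes). At an unadjusted p under 0.05 there were 2 and 4 members, against 25.4% and 25.9% of all genes. DESeq2 called 3 members in each, against 14% and 13.6% of all genes. The replicates stood far apart. With DMSO in normoxia Cx3cr1 was at 67.0 and 351 CPM, Itgam at 975 and 207 CPM, and Adgre1 at 2366 and 901 CPM. With DMSO in hypoxia they were at 1.29 and 200.4 CPM, 61.9 and 186 CPM, and 325 and 418 CPM.
Relative to DMSO in normoxia, panobinostat in hypoxia gave 4 of 10 members lower and none higher, against 13.2% of all genes called and 5.38% called lower. Spi1 stood at 579.5 and 399.8 CPM with DMSO in normoxia, 386 and 272 CPM with DMSO in hypoxia, and 71.2 and 109.7 CPM with panobinostat. It fell by 2.44 ± 0.38 log2 between the first and the last (SE, adjusted p = 0.0238, edgeR). Csf1r stood at 2979.5 and 2609.8 CPM, 1270.1 and 1963 CPM, and 117 and 655 CPM in the same order, and missed the threshold (-2.86 ± 0.82 log2, SE, adjusted p = 0.0688). Adgre1 fell by 3.02 ± 0.59, Aif1 by 4.23 ± 1.04 and Ptprc by 2.11 ± 0.46 log2 (SE, adjusted p = 0.0318, 0.0493 and 0.0391). Cebpa stood at 71.0 and 147 CPM, 40.0 and 77.8 CPM, and 30.001 and 35.6 CPM, and Cd68 at 383 and 644 CPM, 284 and 522 CPM, and 126 and 206 CPM, and both missed the threshold (adjusted p = 0.0599 and 0.0685, edgeR).
Of the 10 members, 9 did not overlap between these groups, against 67.5% of all genes, and the median difference was -2.65 log2, against 0.03 over all genes. None of the 4 calls was made without any 1 of the 4 libraries, while DESeq2 called 9 members, against 22.2% of all genes. The fibroblast markers moved too: they summed to 23237 and 20453 CPM with DMSO in normoxia, 2674 and 13839 CPM with DMSO in hypoxia, and 8758 and 14357 CPM with panobinostat, with 5 or 6 of the 6 genes above 3 counts and Lum at or near 0. Summed dendritic cell markers stood at 1.73 and 1.39 CPM with DMSO in normoxia, 2.16 and 3.74 CPM with DMSO in hypoxia and 14.8 and 13.97 CPM with panobinostat, with 1 of the 5 genes, Zbtb46, above 3 counts. The part of either list in the BMDM values of this experiment was not tested.

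Between cell types, the interaction test called no member for the hypoxia effect with DMSO (0.664% of all genes) or for the panobinostat effect (0.0251% of all genes). At an unadjusted p under 0.05 there were 2 and 1 members, against 18.6% and 11.2% of all genes, and DESeq2 called 1 and 0, against 8.47% and 1.45%. The panobinostat effect on Csf1r was -0.30 ± 0.84 log2 different in BMDM from that in BV2 (SE), and that on Adgre1 -2.36 ± 0.76 log2 different (SE, adjusted p = 0.317, edgeR).

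**Figure D5:**
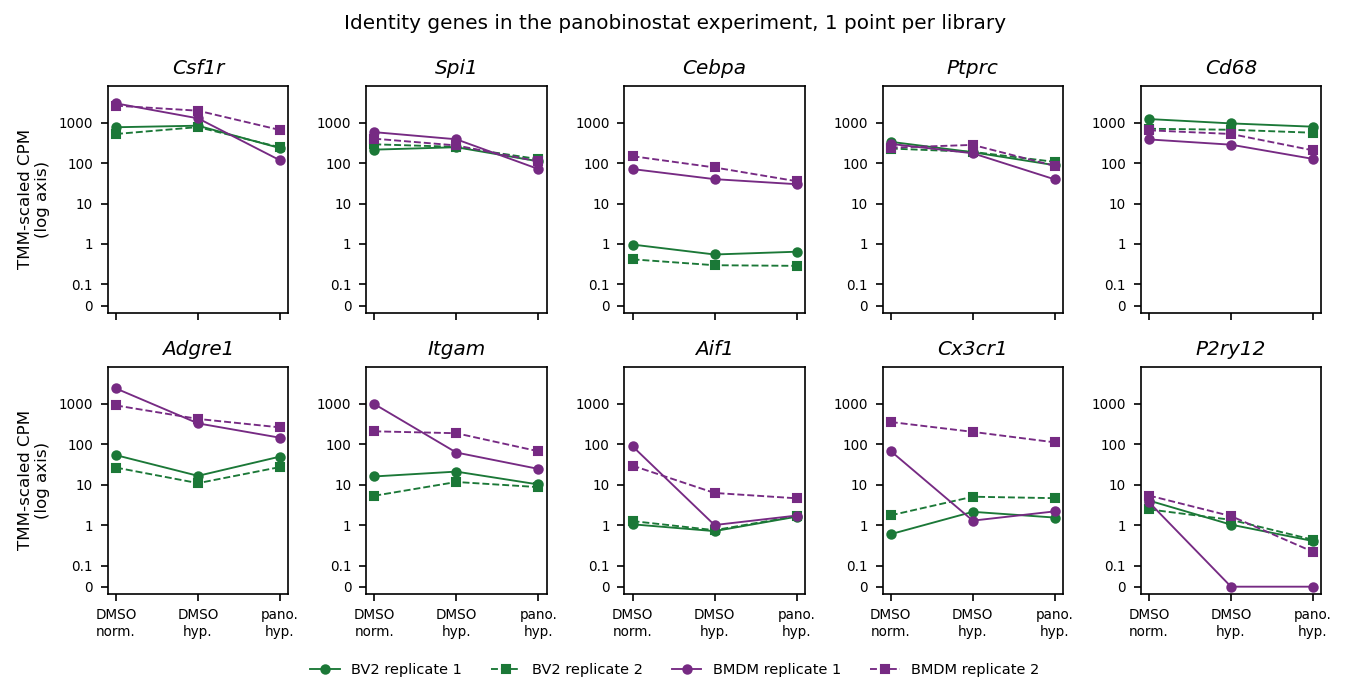
Level of each member with DMSO in normoxia, DMSO in hypoxia and 10 nM panobinostat in hypoxia, in BV2 and BMDM, in TMM-scaled CPM on a log axis; each point is 1 library and lines join libraries with the same replicate number. Csf1r in BV2 is at 522 CPM or more in all 4 DMSO libraries and at 234 and 244 CPM with panobinostat, while the BMDM replicates of Cx3cr1 and Itgam lie far apart.

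The ligands, partners and other lineage genes around the members were counted from lists of names. Of the ligands and partners (Csf1, Il34, Cx3cl1, Icam1, Itgb2, Tyrobp and Hcst), hypoxia raised 3 and lowered none of the 6 tested in BV2 monoculture, against 61.9% of all genes called, and raised 2 and lowered none of 6 in BMDM monoculture, against 23.9%. In co-culture Csf1 rose with hypoxia too, from 135 to 384 CPM in BV2 (1.5 ± 0.14 log2, SE) and from 13.4 to 249 CPM in BMDM (4.21 ± 0.64 log2, SE, adjusted p = 0.000618, edgeR). Itgb2, the partner chain of CD11b, fell by 0.80 log2 with hypoxia in each of the co-cultures, and with panobinostat in BV2 it fell by 1.01 ± 0.20 log2 (SE, adjusted p = 0.0119, edgeR). Itgb2 therefore did not follow Itgam in hypoxic BV2 co-culture.
With DMSO, Csf1 was at 252 CPM in normoxic and 279 CPM in hypoxic BV2, and at 507 and 1163 CPM in BMDM, and passed in neither. The BMDM Csf1 level in this experiment was far above the 8.11 CPM of the co-culture experiment, in the libraries with the high fibroblast markers.

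Of 14 other lineage transcription factors, 13 were tested in BV2 monoculture, and hypoxia raised 7 and lowered 5, against 61.9% of all genes called. Klf4 rose by 1.28 log2, while Mef2c and Ikzf1 fell by 0.79 and 0.68 log2. In BMDM monoculture 2 of 13 rose and 1 fell, against 23.9% of all genes called: Klf4 rose from 56.6 to 267 CPM (2.24 ± 0.21 log2, SE) and Nr1h3, the liver X receptor alpha, fell by 1.51 log2. Panobinostat lowered 3 of 13 and raised none in BV2, against 14.6% of all genes called, among them Fli1, an ETS factor like PU.1, from 48.3 to 9.74 CPM (-2.31 ± 0.29 log2, SE, adjusted p = 0.00247, edgeR).

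Of 17 homeostatic microglial genes, 12 were tested in BV2, and hypoxia raised 5 and lowered 2 in monoculture, against 61.9% of all genes called, and raised 5 and lowered 4 in co-culture, against 67.3%. Mertk, a phagocytic receptor, rose from 14.9 to 45.6 CPM (1.61 log2). The list therefore did not move in 1 direction with P2ry12. In BMDM hypoxia lowered 1 of the 14 tested in monoculture and raised none, against 23.9% of all genes called. In co-cultured BMDM it lowered 7 of 14 and raised none, against 34.8% of all genes called and 17.3% called lower, among them Olfml3 by 2.07 log2 and Mertk by 1.09 log2. Sparc, a secreted matrix protein on the list, was at 0.348 CPM in BV2 alone and 28.6 CPM with GL261, whose own monoculture level was 4372 CPM. Trem2, a microglial lipid receptor, fell with panobinostat in BV2 from 138 to 55.1 CPM (-1.33 log2).
Of 24 pan-myeloid genes, hypoxia raised 14 and lowered 4 in BV2 monoculture, against 61.9% of all genes called, and raised 4 and lowered 3 in BMDM monoculture, against 23.9%. In normoxic co-culture 8 were higher and 2 lower in BV2, against 14.9% of all genes called, including Lyz2 from 178 to 425 CPM. In BMDM 1 was higher, against 1.64% of all genes called: Itgax, the CD11c gene, from 7.74 to 29.98 CPM (1.96 log2). Panobinostat lowered 7 and raised 1 in BV2, against 14.6% of all genes called, including Cd14, the endotoxin co-receptor, from 140.2 to 33.1 CPM (-2.08 log2). In BMDM, panobinostat in hypoxia against DMSO in normoxia lowered 6 of 24 pan-myeloid genes and 5 of 13 transcription factors and raised none, against 13.2% of all genes called and 5.38% called lower, in the libraries with the high fibroblast markers.

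The genes most like each member across the 30 BV2 and BMDM libraries were found after the mean of each cell type within an experiment was removed, over 10664 genes. Pearson's r is given as a description, since libraries share their group, depth and culture. Csf1r was most like Myo1f (r = 0.93), a myeloid myosin, and Spi1 most like Vamp8 (r = 0.92). Cd68 was most like Cd84 (r = 0.93) and then Trem2 (r = 0.88). Itgam was most like Pirb (r = 0.93), an inhibitory myeloid receptor, and then the Fc receptor gene Fcgr3 (r = 0.92). Ptprc had Tmem106a (r = 0.92) and then Csf1r (r = 0.90) as its nearest genes.
P2ry12 was most like Slfn9 (r = 0.93), Aif1 like Arrb2 (r = 0.93), Cx3cr1 like Ucp2 (r = 0.91), Cebpa like BC005537 (r = 0.90) and Adgre1 like Inpp4b (r = 0.86). When the mean of each group was removed in place of that of the cell type, so that treatment differences no longer counted, the nearest gene stayed the same for 1 of the 10 members, Itgam. Among the members, r ran from 0.163 (Ptprc with Aif1) to 0.902 (Ptprc with Csf1r).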

How the data were processed

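RNA of 38 libraries was sequenced by poly(A) selection with a stranded kit as 151-bp pairs, per the labels. The authors deposited gene counts, not normalized, in 3 tables of 55487 Ensembl identifiers, of which 55141 had a symbol. The submitters' processing notes name Trimmomatic 0.36, STAR 2.6, Picard 2.17.1, SAMtools, HTSeq 0.9.1, deepTools and the mm10 build. The strand setting of the counting is not given in the sources used here.

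Counts were fitted per experiment and cell type, over all groups of that cell type, with edgeR 4.0.16 (R 4.3.3): genes were kept by filterByExpr (minimum count 10, total 15), scaled by TMM and tested by the quasi-likelihood F test with Benjamini-Hochberg adjustment over all tested genes at 0.05. SE is the log2 fold change divided by the root of F. Differences between cell types were fitted over all libraries of 1 table. DESeq2 1.42.0, other scaling and filters, a replicate block, fits of only the groups compared, removal of genes 4-fold higher in the partner, and leaving out each library were the alternatives. The share of partner RNA was read from genes at 20 CPM or more and 100-fold higher in the partner, with the members left out. All 22 replicate pairs differed by more than counting noise (chi-square per degree of freedom 6.12 to 141). The replicate numbers of co-cultured BMDM pair the samples by correlation of their deviations (the 3 same-numbered pairs were each over 0.1), and no label says what a number shares.

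The fitting was tested on simulated counts in which some genes with a mean of at least 5 CPM were changed by 1 or 2 log2. Each simulated gene was given the scatter typical of its level, not its own. The shares called therefore do not cover members below 5 CPM or with more scatter than that. In the BMDM panobinostat comparison 2.17% of the 1 log2 changes and 48.1% of the 2 log2 changes were called. In the BV2 panobinostat comparison 52.7% and 99.1% were called. For hypoxia in monoculture the shares were 49% and 99% in BMDM, and 99.0% and 100% in BV2. A member that did not pass in BMDM of the panobinostat experiment is therefore not shown to be unchanged. All 10 members are given in every comparison. Of the other lists, counts are given, with at most the 2 largest changes in each direction and the ligands of member receptors. Some genes of these lists are not reported here by name. The members and all lists were chosen with earlier results of these data known.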

Additional observations from a re-analysis of the deposited data

Results flagged for a closer look

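For Cx3cr1, the fractalkine receptor gene, the hypoxia effects in BV2 with GL261 and in BV2 alone differed by -2.14 log2 and passed the interaction test by edgeR. The call was made in 1 of the 8 fits that left out a library, DESeq2 gave the gene no adjusted p, and the values rest on 15 to 48 reads per library. In monoculture the effect of hypoxia was 0.74 log2 in BV2 and -0.93 log2 in BMDM. The groups did not overlap in either cell type, but neither effect passed. This difference between cell types was not tested because the experiments were counted separately.

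The following pairs of effects had opposite signs and no overlap between the groups compared, and the difference between the effects was not tested. Of these effects only that on Ptprc in BV2 without DMSO passed on its own. With groups this small, a lack of overlap says little on its own. The share of all genes without overlap is not given here for the comparisons below. In another comparison, panobinostat in hypoxia against DMSO in normoxia in BMDM, it was 67.5%. Spi1 differed between hypoxic co-culture and hypoxic monoculture by -0.28 log2 in BV2 and 0.22 log2 in BMDM. Ptprc in BV2 differed between hypoxia and normoxia by 0.41 log2 without DMSO and -0.59 log2 with DMSO. In BMDM, the hypoxia effect on Csf1r was 0.11 log2 without and -0.79 log2 with DMSO, and that on Itgam 0.41 log2 without and -2.26 log2 with DMSO. Itgam with DMSO stood at 975 and 207 CPM in normoxia and at 61.9 and 186 CPM in hypoxia, so replicate 1 made up most of that fall. The BMDM libraries with DMSO carried 2674 to 23237 CPM of summed fibroblast markers, and their part in these differences was not tested.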

How the results depend on the processing

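Of 2221 member values under alternatives, 2009 kept their side of the threshold, 91 lost the call, 121 gained one and none that was called reversed. Among the 2009, 85 changed sign without a call under either setting. Beyond the 2221 values, DESeq2 gave no adjusted p for 3. No scaling moved the median of all genes by more than 0.0785 log2. Of 246 counts of called members, 172 stayed within 1.5 times. The cause of the other changes was not tested, beyond fewer genes or libraries entering a fit.

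Without a filter beyond 1 count, called members went from 1 to 4 for BV2 co-culture in normoxia, 3 to 5 for BV2 co-culture in hypoxia, 1 to 3 for the BV2 interaction, 1 to 3 for GL261 co-culture in hypoxia, 3 to 5 for BMDM hypoxia alone, and 1 to 2 for BMDM co-culture at either oxygen level. In the panobinostat experiment they went in BMDM from 0 to 5 for hypoxia, 0 to 6 for panobinostat and 4 to 10 for panobinostat against normoxia, and from 0 to 3 and 0 to 1 for the interactions. With a mean of at least 5 CPM they went from 7 to 4 for BV2 hypoxia in co-culture, 1 to 2 and 3 to 1 for BV2 co-culture in normoxia and hypoxia, 2 to 1 for BV2 hypoxia with DMSO, and 10 to 6 for BV2 against GL261. DESeq2 gave 2 for BV2 co-culture in normoxia, 2 for the BV2 interaction, 2 for GL261 co-culture in hypoxia, 3 for BMDM co-culture in hypoxia, 1 for BV2 hypoxia with DMSO, 3, 3 and 9 for the BMDM hypoxia, panobinostat and combined comparisons, and 1 for the hypoxia interaction. DESeq2 size factors gave 2 for BV2 co-culture in normoxia. Fits of only the groups compared gave 3 for BV2 co-culture in normoxia, 0 for GL261 and 0 for BMDM co-culture in hypoxia, 7 for BMDM hypoxia alone and 1 for BV2 hypoxia with DMSO. Removal of genes higher in the partner gave 3 for BV2 co-culture in normoxia and 0 for GL261 at either oxygen level, where Cebpa was the 1 member still tested.

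With the replicate number as a block, called members were 2 for BV2 co-culture in normoxia, 2 for GL261 co-culture in hypoxia, 5 for BV2 hypoxia with DMSO, and 1, 3 and 9 for the BMDM hypoxia, panobinostat and combined comparisons. Outside co-cultured BMDM, whether same-numbered libraries are paired cannot be told, and no label says what they share. Their deviations correlated by 0.0335 on average in BV2 and 0.180 in GL261 of the co-culture experiment. In the panobinostat experiment the averages were 0.302 in BV2 and 0.446 in BMDM, against 0.244 to 0.455 for the 3 pairs of co-cultured BMDM. With 2 libraries in a group, their deviations mirror each other, so each such correlation is a single value.

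Leaving out 1 library gave 3 to 5 calls for BV2 hypoxia alone, 6 to 7 in co-culture, 1 to 2 and 2 to 4 for BV2 co-culture in normoxia and hypoxia, and 0 to 1 for the BV2 interaction. It gave 0 to 1 and 0 to 2 for GL261, 2 and 2 to 5 for BMDM hypoxia alone and in co-culture, and 0 to 1 and 0 to 4 for BMDM co-culture. In the panobinostat experiment it gave 1 to 3, 0 to 3 and 4 to 5 in BV2, 0 in each of the 3 BMDM comparisons, 0 to 2 for the hypoxia interaction, and 4 to 6 for BMDM against BV2. A lone library was assumed to vary like the other groups.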
